A study of Mus musculus with 18 samples.

Results

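Desmosome genes were followed across 18 RNA sequencing samples of mouse embryonic stem (ES) cells grown in 3D culture. The 10 genes encode the desmosomal cadherins (Dsg2, Dsc2, Dsc3), plakoglobin (Jup), the plakophilins (Pkp1, Pkp2, Pkp3, Pkp4) and the plakins desmoplakin (Dsp) and periplakin (Ppl). They were taken by symbol from the 49671 gene identifiers of the count table, and all 10 were found. They differed in the size of their response. Dsc2, Pkp3 and Ppl were lower under the GSK3 inhibitor and, together with Dsp, higher after 4-hydroxytamoxifen (4OHT) treatment of Esrrb fl/fl cells. Dsg2, Jup, Pkp2 and Pkp4 were present at higher levels in every group and differed by at most 2.12-fold in any comparison. With GSK3 and MEK inhibitors relative to Fgf2 and Activin, Pkp2 (log2 change -1.08) and Dsg2 (1.02) still passed the thresholds used. Pkp2 was also lower with the GSK3 inhibitor alone than with the solvent (-0.70), under the minimum fold change. Dsc3 and Pkp1 were close to 0 in every sample.

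Desmosomes are intercellular junctions that tie the keratin network of one epithelial cell to that of its neighbour and give the sheet mechanical strength. In the intercellular space, desmogleins and desmocollins adhere to each other. Inside the cell, the armadillo proteins plakoglobin and the plakophilins bind the cadherin tails, and desmoplakin connects this plaque to the intermediate filaments. Dsg2, Dsc2 and Pkp2 are the forms of simple epithelia and heart muscle, while Pkp1, Dsc3 and the Dsg1 genes belong mainly to stratified epithelia such as the epidermis. Pkp4 is a relative of p120-catenin that is also found at adherens junctions.

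The study asked how Wnt/β-catenin signalling and the nuclear receptor Esrrb relate to epithelial polarity in cells of the epiblast. Wild-type E14 ES cells, a mouse line, were embedded in Matrigel depleted of growth factors and cultured for 48 h in N2B27 medium, with 3 samples in each of 4 conditions. These were DMSO (the solvent), CH (3 µM CHIR99021, which inhibits GSK3), 2i (the same dose of CHIR99021 plus 0.4 µM of PD0325901, which inhibits MEK) and Fgf2/Activin (12 ng/ml Fgf2 plus 20 ng/ml Activin A). Esrrb fl/fl ES cells with a tamoxifen-inducible Cre (MerCreMer) formed the other 2 groups of 3 samples, 1 untreated and 1 exposed to 4OHT for 1 day to delete Esrrb. Both were then kept for 24 h in 3D culture with 3 µM CHIR99021. The promoter of the Cre transgene is not given in the sources used here. All cells had been maintained in 2i with Lif beforehand. The untreated and the treated Esrrb fl/fl cells differ in exposure to 4OHT as well as in the deletion, and these cannot be told apart. Likewise, 2i and Fgf2/Activin differ in CHIR99021, PD0325901, Fgf2 and Activin A, and the parts of these agents cannot be told apart in that comparison. E14 cells and Esrrb fl/fl cells also differ in origin, passage (20 and 25) and hours of culture, so their levels are given side by side without a test.

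Between 25388139 and 37158661 reads were counted on genes per wild-type sample and between 19915222 and 20140699 per Esrrb fl/fl sample. The samples numbered 1 stood apart from those numbered 2 and 3 in all 6 groups (chi-square per gene of 11.8 to 65.9 against sample 1, and 1.46 to 8.57 between samples 2 and 3), and the changes of called members are therefore also given from samples 2 and 3 alone. Levels are given as CPM, which are reads scaled by library totals after TMM adjustment, as described below. Esrrb itself had 122 ± 19.1 CPM (SD, n = 3) in untreated and 59.8 ± 2.51 CPM in 4OHT-treated Esrrb fl/fl cells. The log2 difference of -0.99 (SE 0.10) stopped short of the minimum fold change. The count covers the whole gene, and transcripts without the deleted part could still be counted. The 7 markers of ES cells on the list used each exceeded 3 counts in at least 1 sample of every group, but their levels differed. They summed to 1446 to 1538 CPM in DMSO and 2067 to 2468 in CH, with 4 called higher in CH and 1 lower (7.51% and 10.2% of all genes). In Esrrb fl/fl cells they summed to 2725 to 2824 CPM untreated and 1501 to 1651 after 4OHT, with 0 called higher and 2 lower (12.8% and 3.87% of all genes). Krt5 and Krt14, keratins of stratified epithelia, never exceeded 6 counts. In bulk RNA, a smaller share of cells with a transcript cannot be told apart from less transcript per cell.

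Of the 10 genes, Dsp, Jup and Pkp4 had a promoter window in the RefSeq-derived table. Dsp, which lies on the plus strand of chr13:38151294-38198577 (GRCm38, 24 merged exons), and Jup, on the minus strand of chr11:100368958-100397763 (14 merged exons), are shown because they form 1 complex in the plaque and responded differently. The windows hold the 250 bases before the RefSeq start, at chr13:38151044-38151293 and chr11:100397791-100398040 of GRCm38.p6, written 5′ to 3′ on the strand of the gene. Capitals mark the words CCAAT and GGGCGG (GC box) on either strand.
Dsp: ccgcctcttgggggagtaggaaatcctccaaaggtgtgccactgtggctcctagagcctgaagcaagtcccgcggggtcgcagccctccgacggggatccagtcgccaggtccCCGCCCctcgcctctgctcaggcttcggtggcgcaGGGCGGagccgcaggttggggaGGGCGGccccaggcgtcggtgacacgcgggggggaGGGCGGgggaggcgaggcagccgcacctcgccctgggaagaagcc
Jup: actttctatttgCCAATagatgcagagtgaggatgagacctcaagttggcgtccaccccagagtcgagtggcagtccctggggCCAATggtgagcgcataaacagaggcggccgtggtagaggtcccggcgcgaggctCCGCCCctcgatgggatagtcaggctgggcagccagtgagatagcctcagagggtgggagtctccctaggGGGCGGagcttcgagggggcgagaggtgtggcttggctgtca
The Dsp window held 4 GC boxes and no CCAAT. The Jup window held 2 of each. CCAAT occurred in 33.8% and GGGCGG in 32.7% of all 32851 windows of this length, and both words were chosen after the sequences had been seen. The GC content was 72.4% for Dsp and 62.0% for Jup, against a median of 52.4%. Neither window contained the Grainyhead-like word ACCGGT (1.86% of windows), the Esrrb word AAGGTCA (4.08%), the TCF/LEF word ATCAAAG (3.21%) or the E-boxes CACCTG and CAGGTG (17.2%) on either strand. Of the 2 windows of Pkp4, 1 held an E-box. These are matches of letters in a short window only. The Dsp window also lies within an annotated antisense exon of Gm10129, which overlaps 5.17% of the exon length of Dsp and had at most 1 count in any sample.

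Levels of different genes were compared as CPM per kilobase of merged exon. In DMSO, Jup was the highest member at 32.3 ± 8.62 CPM per kb (SD, n = 3), followed by Pkp4 at 19.7 ± 0.563, Pkp2 at 14.8 ± 1.67 and Dsg2 at 8.38 ± 3.14 CPM per kb. The ranges of these 4 did not overlap between neighbours in DMSO. Pkp3, Dsc2, Ppl and Dsp formed a lower tier between 2.30 and 2.81 CPM per kb in which all neighbours overlapped. Pkp1 and Dsc3 averaged 0.0434 and 0.0420 CPM per kb. The same 4 genes made up the upper tier, and the same 4 the middle tier, in each of the 6 groups, while the order inside the tiers changed. Pkp4 and Jup overlapped at the top in Fgf2/Activin and in 4OHT-treated cells. Jup led without overlap in DMSO, CH, 2i and untreated Esrrb fl/fl cells. In 2i it reached 41.0 ± 3.18 CPM per kb.

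**Figure D1:**
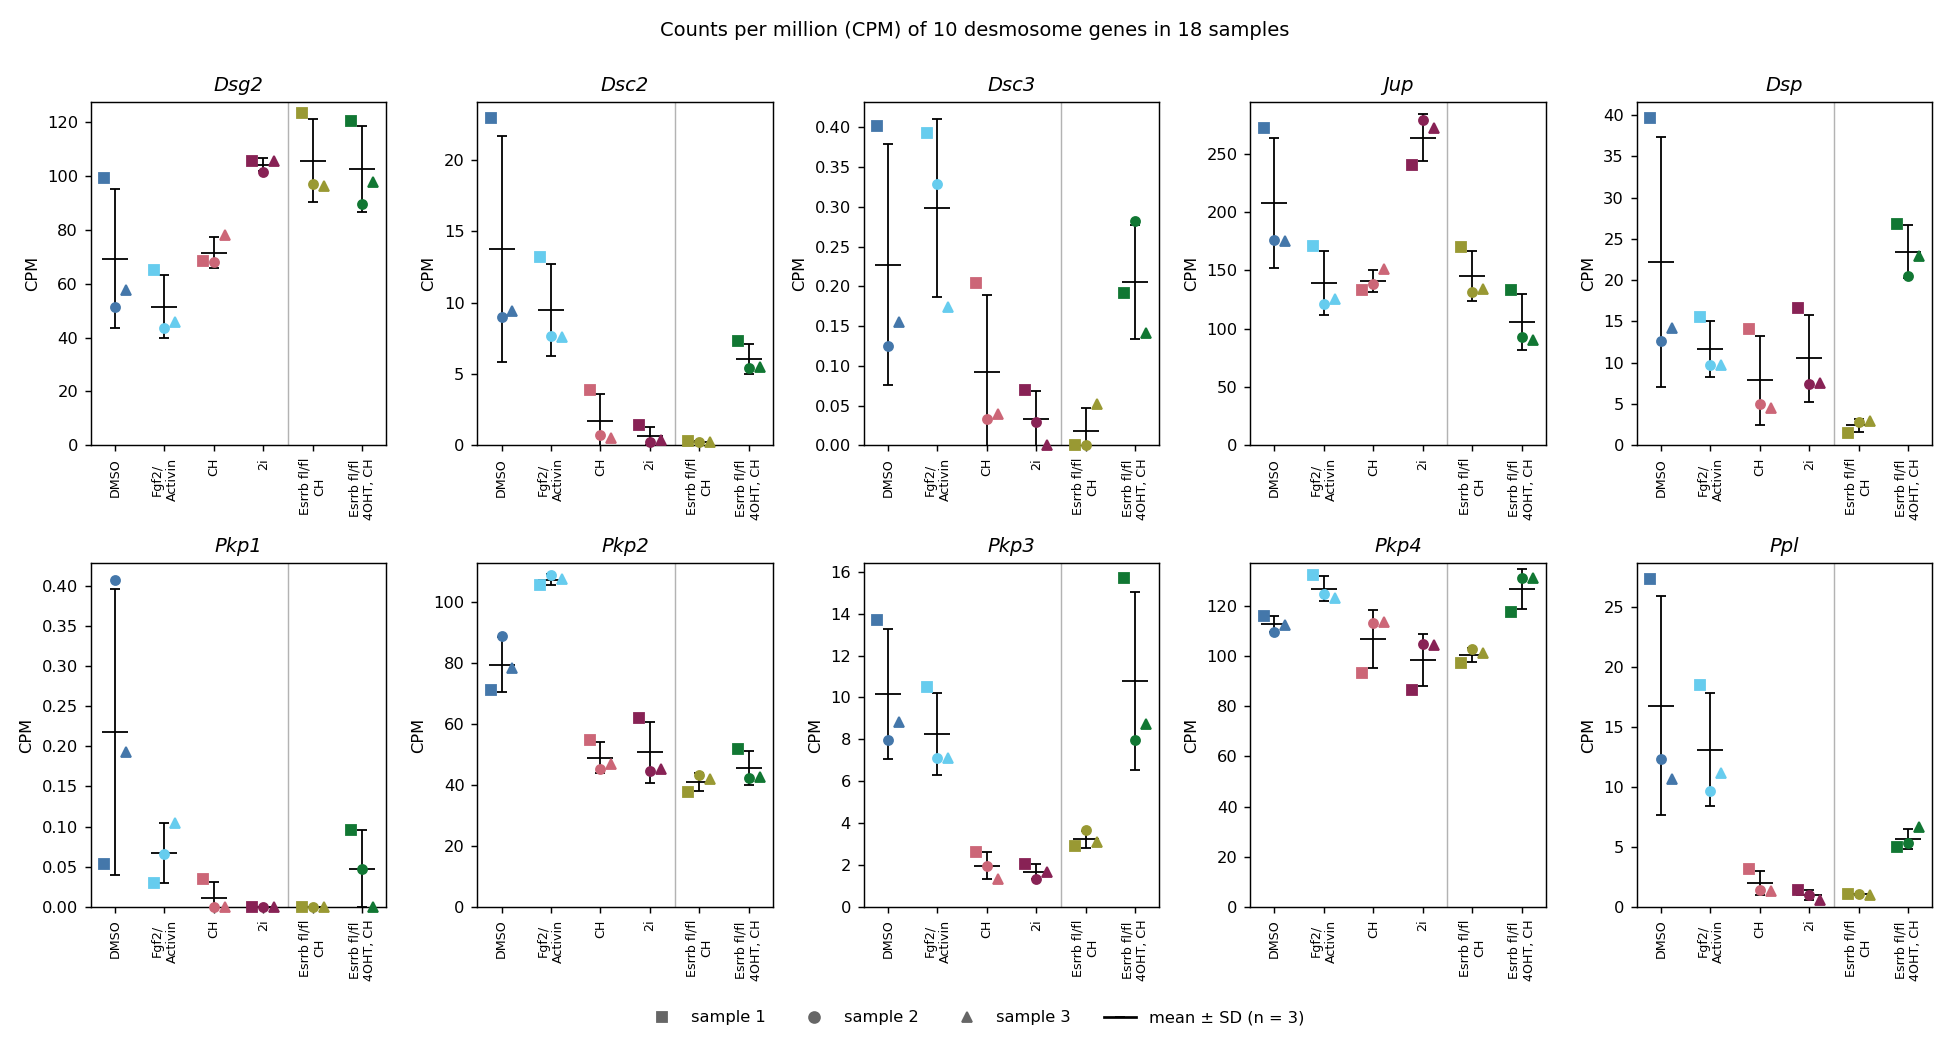
CPM of each of the 10 genes (vertical axes from 0, 1 scale per gene) in the 6 groups (horizontal axis), with 1 mark per sample and the mean ± SD of 3 samples in black, and a grey line between wild-type and Esrrb fl/fl cells. Dsc2, Pkp3 and Ppl are low in CH, in 2i and in untreated Esrrb fl/fl cells, while Dsg2, Jup, Pkp2 and Pkp4 stay at 37.6 CPM or above in every sample.

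Among the desmosomal cadherins, Dsc2 (desmocollin 2) carried the largest changes. It had 22.9, 9.02 and 9.43 CPM in DMSO samples 1 to 3 and 13.2, 7.63 and 7.62 CPM in Fgf2/Activin. Under the GSK3 inhibitor it had 3.85, 0.751 and 0.480 CPM in CH and 1.39, 0.236 and 0.344 CPM in 2i. Every sample with the inhibitor was lower than every wild-type sample without it, and sample 1 was the highest of each group. Dsc2 fell by 3.01 (SE 0.77) on the log2 scale in CH relative to DMSO, with an adjusted p of 0.00878 (edgeR quasi-likelihood test, adjusted by Benjamini-Hochberg over all genes). This call was close to the threshold of 0.01 and was kept in 6 of 12 alternative analyses. Leaving out any DMSO sample, or CH sample 2 or 3, ended it, with log2 changes between -3.24 and -2.43, as did a fit on only the 6 samples compared (adjusted p = 0.0275), while without CH sample 1 it was -4.46. The replicate block, which compares samples of the same number, gave -3.18 (SE 0.32, adjusted p = 1.05e-05), and samples 2 and 3 alone gave -3.86. In 2i relative to Fgf2/Activin Dsc2 fell by 3.87 (SE 0.84, edgeR adjusted p = 0.00253), 14.7-fold, a call kept in 10 of 12 alternatives. It was lost without 2i sample 2 (-3.45) or sample 3 (-3.55), and without 2i sample 1 the change was -5.01. With samples 2 and 3 alone it was -4.70.

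Dsc2 was almost absent from untreated Esrrb fl/fl cells. Each untreated sample had 5 counts, or 0.268, 0.259 and 0.261 CPM, and the 4OHT-treated samples had 152, 115 and 117 counts, or 7.29, 5.41 and 5.49 CPM. All treated samples were above all untreated ones. The rise was 4.53 (SE 0.25) on the log2 scale, 23.2-fold, with an edgeR adjusted p of 4.42e-06. It was called in 11 of 11 alternatives and was 4.39 with samples 2 and 3 alone.

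Dsg2 (desmoglein 2), the partner of Dsc2 in simple epithelia, did not follow it. Dsg2 had 99.0, 51.1 and 57.7 CPM in DMSO, 68.5, 67.9 and 78.0 in CH, 64.9, 43.4 and 45.9 in Fgf2/Activin and 106, 101 and 105 in 2i. The 2i samples were the highest of the wild-type cultures, and DMSO and CH overlapped because of DMSO sample 1. Between CH and DMSO the log2 difference was 0.05 (SE 0.22, edgeR adjusted p = 0.887), and from samples 2 and 3 alone it was 0.43. In 2i relative to Fgf2/Activin Dsg2 rose by 1.02 (SE 0.22, edgeR adjusted p = 0.00272), just past the minimum of 1. The call was lost without Fgf2/Activin sample 2 (0.91) or sample 3 (0.95), and samples 2 and 3 alone gave 1.22. Esrrb fl/fl cells had 123, 97.1 and 96.3 CPM of Dsg2 untreated and 120, 89.5 and 97.8 CPM after 4OHT. These groups overlapped almost fully, with a log2 difference of -0.0050 (SE 0.13).

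The ratio of Dsg2 to Dsc2 within a sample, in CPM per kb, describes this divergence and was not tested. It lay between 2.76 and 3.91 in DMSO and between 3.13 and 3.85 in Fgf2/Activin. In CH it ranged from 11.4 to 104 and in 2i from 48.4 to 274. Both ranges lay above those of the cultures without the inhibitor. Esrrb fl/fl cells had ratios of 236 to 294 untreated, resting on 5 Dsc2 counts per sample, and 10.5 to 11.4 after 4OHT.

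Dsc3 (desmocollin 3), a cadherin of basal epidermis, was barely detected. It had 15, 4 and 4 counts in DMSO, 13, 10 and 5 in Fgf2/Activin, 6, 1 and 1 in CH and 2, 1 and 0 in 2i. The Fgf2/Activin samples all had more counts than the 2i samples. The ratio of Fgf2/Activin to 2i was 9.57 with a 95% exact counting interval of 2.96 to 49.2, which covers counting error only. Without the block the edgeR adjusted p was 0.0120 and with the replicate block it was 0.00142, so that Dsc3 was called in 1 of 12 alternatives. Untreated Esrrb fl/fl cells had 0, 0 and 1 counts and 4OHT-treated cells 4, 6 and 3, too few for the test. The 3 cadherin genes lie on chromosome 18 of GRCm38, Dsg2 on the plus strand at chr18:20558074-20604521, Dsc2 on the minus strand at chr18:20030633-20059554 and Dsc3 on the minus strand at chr18:19960930-20002351. An antisense gene, Gm16090, covers 3.99% of the Dsg2 exon length and had at most 7 counts per sample.

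Plakoglobin, encoded by Jup, binds the tails of desmosomal and classical cadherins and is a close relative of β-catenin. Jup had 272, 176 and 176 CPM in DMSO, 133, 138 and 151 in CH, 171, 121 and 125 in Fgf2/Activin and 241, 279 and 272 in 2i. CH lay below DMSO in all samples, 2i lay above both CH and Fgf2/Activin in all samples, and 2i and DMSO overlapped. The log2 difference between CH and DMSO was -0.56 (SE 0.17, edgeR adjusted p = 0.0235), and from samples 2 and 3 alone it was -0.27. Between 2i and Fgf2/Activin it was 0.93 (SE 0.18, adjusted p = 0.00108), short of the minimum of 1. It passed that minimum with samples 2 and 3 alone (1.17) and without Fgf2/Activin sample 1 (1.11).

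Between 2i and CH, which differ by the MEK inhibitor, the log2 difference of Jup was 0.91 (SE 0.18, edgeR adjusted p = 0.0105). With the replicate block its adjusted p was 0.00223. Jup had 170, 131 and 134 CPM in untreated Esrrb fl/fl cells and 133, 93.1 and 90.6 CPM after 4OHT. Each treated sample was below the untreated sample of its number, with overlap between the groups at sample 1. The log2 difference was -0.42 (SE 0.15, edgeR adjusted p = 0.0419), and with the replicate block it was -0.43 (SE 0.05, adjusted p = 7.21e-06), under the minimum fold change in both.

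The plakophilins strengthen the plaque by binding desmoplakin and the cadherins, and they divided by gene. Pkp3, the plakophilin of most epithelia, had 13.7, 7.96 and 8.81 CPM in DMSO and 10.5, 7.11 and 7.13 CPM in Fgf2/Activin. It had 2.62, 1.96 and 1.32 CPM in CH and 2.05, 1.33 and 1.66 CPM in 2i. All wild-type samples with the GSK3 inhibitor were below all wild-type samples without it. Pkp3 fell by 2.36 (SE 0.31) on the log2 scale in CH relative to DMSO and by 2.29 (SE 0.31) in 2i relative to Fgf2/Activin, with edgeR adjusted p of 0.000121 and 0.000102. Both calls were kept in 12 of 12 alternatives, with -2.32 and -2.25 from samples 2 and 3 alone. Untreated Esrrb fl/fl cells had 2.89, 3.68 and 3.07 CPM of Pkp3 and 4OHT-treated cells 15.7, 7.95 and 8.73 CPM. The groups were apart, and treated sample 1 was well above the other 2. The rise was 1.78 (SE 0.27, edgeR adjusted p = 0.000619), and from samples 2 and 3 alone it was 1.34.

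Pkp2, the plakophilin of heart and simple epithelia, changed less. It had 71.1, 89.0 and 78.6 CPM in DMSO, 54.9, 45.1 and 47.0 in CH, 106, 109 and 108 in Fgf2/Activin and 62.2, 44.7 and 45.2 in 2i. The 4 conditions were ordered Fgf2/Activin above DMSO above CH and 2i without overlap, and CH and 2i overlapped. Between CH and DMSO the log2 difference was -0.70 (SE 0.13, edgeR adjusted p = 0.00166), past the p threshold and under the minimum fold change. In 2i relative to Fgf2/Activin Pkp2 fell by 1.08 (SE 0.13, adjusted p = 5.67e-05). That call was lost without 2i sample 2 or 3 (-0.99 and -0.996), while samples 2 and 3 alone gave -1.26. Pkp2 had 37.6, 43.1 and 42.0 CPM in untreated Esrrb fl/fl cells and 51.9, 42.1 and 42.7 CPM after 4OHT, which overlapped, with a log2 difference of 0.19 (SE 0.09, edgeR adjusted p = 0.110).

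Pkp4 was the most even of the 9 members tested in wild-type cells, with a lowest sample of 86.5 CPM in 2i and a highest of 132 CPM in Fgf2/Activin. Its log2 difference was -0.08 (SE 0.09, edgeR adjusted p = 0.552) between CH and DMSO. It was -0.36 (SE 0.09, adjusted p = 0.00748) between 2i and Fgf2/Activin, under the minimum fold change. Esrrb fl/fl cells had 97.1, 103 and 101 CPM untreated and 118, 131 and 131 CPM after 4OHT. The groups were apart, with a difference of 0.37 (SE 0.06, edgeR adjusted p = 0.000722), again under the minimum. Pkp1, the plakophilin of stratified epithelia, had 2, 13 and 5 counts in DMSO, 1, 2 and 3 in Fgf2/Activin, 1 in a single CH sample and 0 in all 2i samples and all untreated Esrrb fl/fl samples. A count of 0 allows up to 3 counts per library. In 4OHT-treated cells it had 2, 1 and 0 counts, and it was removed by the filter on low counts in both fits.

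As shares of the summed plakophilin level in CPM per kb, Pkp4 held 52.8% ± 2.05 (SD, n = 3) in DMSO and 65.7% ± 5.13 in CH. Pkp2 held 39.6% ± 4.06 in DMSO and 32.3% ± 4.51 in CH. The share of Pkp3 was 7.51% ± 2.31 in DMSO, 5.10% ± 1.08 in Fgf2/Activin, 1.93% ± 0.699 in CH and 1.71% ± 0.362 in 2i. Esrrb fl/fl cells had a Pkp3 share of 3.40% ± 0.309 untreated and 8.80% ± 3.24 after 4OHT. The Pkp3 share was thus lowest in the wild-type cultures with the GSK3 inhibitor, and Pkp2 and Pkp4 together made up the bulk of the plakophilin RNA everywhere. These shares were not tested. In GRCm38, Pkp1 lies at chr1:135871395-135919207 (minus strand), Pkp2 at chr16:16213318-16272712 (plus), Pkp3 at chr7:141078218-141090510 (plus) and Pkp4 at chr2:59160850-59355208 (plus).

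**Figure D2:**
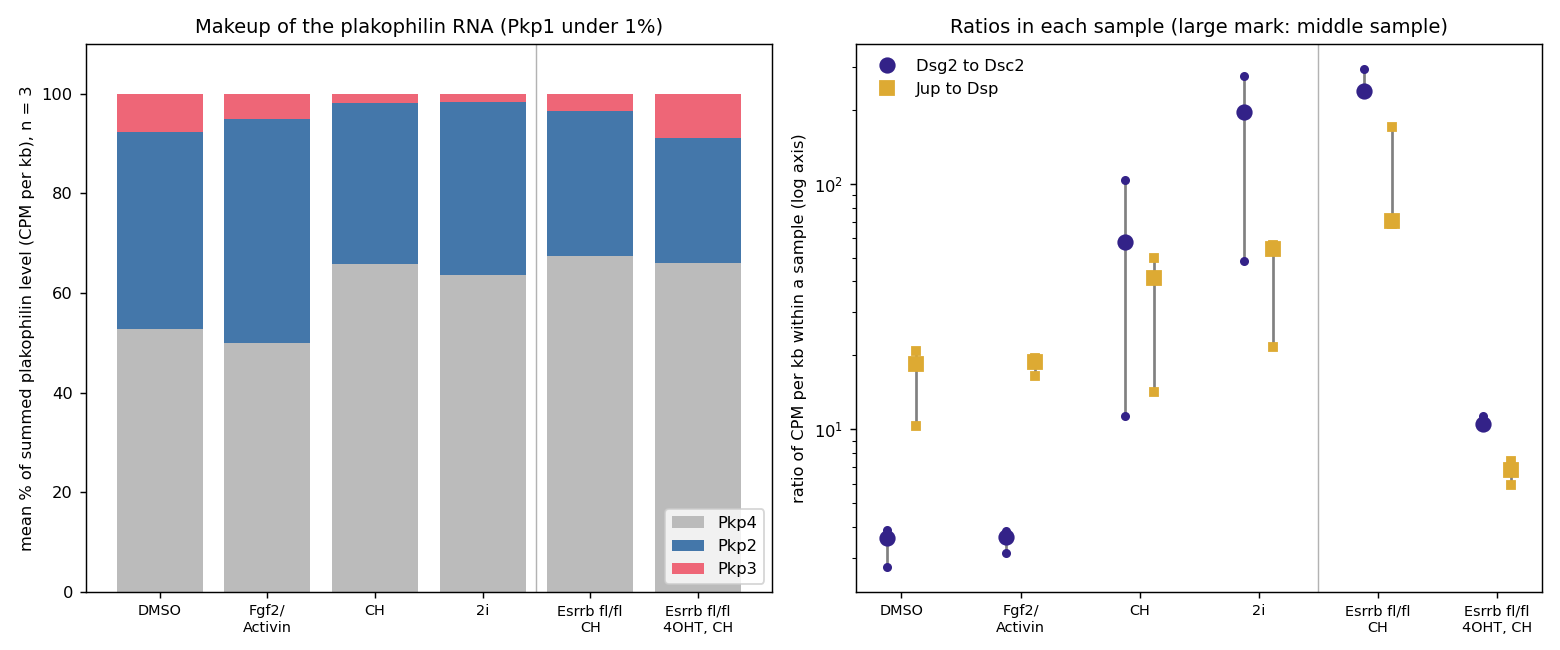
Left, mean share of Pkp4, Pkp2 and Pkp3 in the summed plakophilin level (percent of CPM per kb, n = 3 per group), and right, the ratios Dsg2 to Dsc2 and Jup to Dsp in the 3 samples of each group on a log axis, with a large mark for the middle sample and a line from the lowest to the highest. Dsg2 to Dsc2 lies between 2.76 and 3.91 in DMSO and at 11.4 or above in every sample with the GSK3 inhibitor except the 4OHT-treated group, where it is 10.5 to 11.4.

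Desmoplakin, the plakin that links the plaque to keratin filaments, differed widely between samples of 1 group. Dsp had 39.7, 12.7 and 14.2 CPM in DMSO, 14.1, 5.00 and 4.56 in CH, 15.5, 9.67 and 9.67 in Fgf2/Activin and 16.6, 7.43 and 7.53 in 2i. Sample 1 was the highest of each of these groups, and CH sample 1 fell between DMSO samples 2 and 3. Dsp was lower in CH than in DMSO by 1.49 (SE 0.55) on the log2 scale without passing the test (edgeR adjusted p = 0.0488). With the replicate block it fell by 1.48 (SE 0.18, adjusted p = 3.27e-05) and passed. With samples 2 and 3 alone it fell by 1.48 too, and it was called in 3 of 12 alternatives in all, the third being without CH sample 1 (-2.21, adjusted p = 0.00970). Without DMSO sample 1 the log2 difference was -0.77. Between 2i and Fgf2/Activin the log2 difference was -0.14 (SE 0.54, edgeR adjusted p = 0.848).

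After 4OHT Dsp had the largest change in absolute CPM of the called members. Untreated Esrrb fl/fl cells had 1.5, 2.80 and 2.92 CPM and 4OHT-treated cells 26.9, 20.5 and 22.9 CPM. The groups were far apart, and untreated sample 1 was here the lowest. The rise was 3.31 (SE 0.21) on the log2 scale, 9.94-fold, with an edgeR adjusted p of 7.15e-06, and it was called in 11 of 11 alternatives, with 2.96 from samples 2 and 3 alone. The ratio of Jup to Dsp in CPM per kb was 68.7 to 170 in untreated and 5.94 to 7.43 in 4OHT-treated samples. In wild-type cells it was 10.3 to 20.8 in DMSO, 16.5 to 19.5 in Fgf2/Activin, 14.2 to 49.8 in CH and 21.7 to 56.3 in 2i, with overlap between DMSO and CH.

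Periplakin, a plakin of the cornified envelope and of desmosomal plaques, is encoded by Ppl at chr16:5086291-5132421 (minus strand, GRCm38). Ppl had 27.3, 12.3 and 10.7 CPM in DMSO, 3.13, 1.40 and 1.36 in CH, 18.5, 9.67 and 11.2 in Fgf2/Activin and 1.39, 0.944 and 0.562 in 2i. The samples with and without the GSK3 inhibitor were separate. Ppl fell by 3.09 (SE 0.48) in CH relative to DMSO, 8.49-fold, and by 3.76 (SE 0.51) in 2i relative to Fgf2/Activin, 13.6-fold, with edgeR adjusted p of 0.000439 and 0.000108. Both calls were kept in 12 of 12 alternatives, with -3.05 and -3.77 from samples 2 and 3 alone. After 4OHT it rose from 1.07, 1.04 and 0.990 CPM in untreated cells to 4.99, 5.36 and 6.62 CPM. Both groups were tight and apart, and the rise was 2.48 (SE 0.19, edgeR adjusted p = 1.70e-05), 5.60-fold, with 2.59 from samples 2 and 3 alone.

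Counted over the members, 3 of the 9 that could be tested were called lower in CH than in DMSO (Dsc2, Pkp3 and Ppl) and none higher. A call required an adjusted p under 0.01 and a log2 change of more than 1. Of all 16413 genes tested, 10.2% were called lower and 17.7% in either direction. The median log2 change of the 9 was -1.28, against -0.0022 over all genes. That median is the value of Dsc3, which was barely detected and not called. With the replicate block 4 members were called, Dsp being the addition, against 22% of all genes. Leaving out 1 sample gave 2 to 4 called, 4 only without CH sample 1.

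In 2i relative to Fgf2/Activin 5 of 9 members were called, with Dsc2, Pkp2, Pkp3 and Ppl lower and Dsg2 higher, against 14.4% of all genes called lower and 9.13% called higher (23.5% in all). The median log2 change of the 9 was -1.08, against 0.0021 over all genes. With the replicate block 6 were called, against 27.5% of all genes, and leaving out 1 sample gave 3 to 6, with 3 only without 2i sample 2 or 3. After 4OHT 4 of the 8 members tested were called, all higher (Dsp, Dsc2, Pkp3 and Ppl), and 12.8% of 14893 genes were called higher and 16.7% in either direction. The median log2 change of the 8 was 1.08, against 0.0021 over all genes, and lies between the values of Pkp4 (0.37) and Pkp3 (1.78).

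Few genes of any kind passed the test for the MEK inhibitor (2i and CH) or the growth factors (Fgf2/Activin and DMSO). A count of 0 members called therefore says little about desmosome genes. Jup and Dsg2 were higher in every 2i than in every CH sample. Pkp2 and Pkp4 were higher and Jup lower in every Fgf2/Activin than in every DMSO sample. Between 2i and CH edgeR's quasi-likelihood test called 0 of 9 members (1.99% of all genes, and 0 against 4.09% with the replicate block), 2 had an unadjusted p under 0.05 (Dsg2 and Jup, both higher in 2i), and DESeq2 called 0. Dsc2 was lower in 2i than in CH in each of the 3 same-numbered pairs, with a log2 difference of -1.32 (SE 0.42, adjusted p = 0.0511) with the replicate block and -1.40 (SE 0.84, adjusted p = 0.420) without it. Without CH sample 1, the difference with no block was 0.04. Ppl was also lower in each pair, by -0.99 (SE 0.21, adjusted p = 0.00738) with the block, just under the minimum fold change. Between Fgf2/Activin and DMSO edgeR also called 0 of 9 (1.25% of all genes, 0.902% higher and 0.347% lower, and 0 against 2.58% with the replicate block), 2 had an unadjusted p under 0.05 (Pkp2 higher and Jup lower in Fgf2/Activin), and DESeq2 called 0. The shares of all genes with an unadjusted p under 0.05, or without overlap between groups, are not given here. The members named on those grounds therefore cannot be set against all genes. These comparisons share the CH or the DMSO samples with the comparison of CH and DMSO and are not independent of it.

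**Figure D3:**
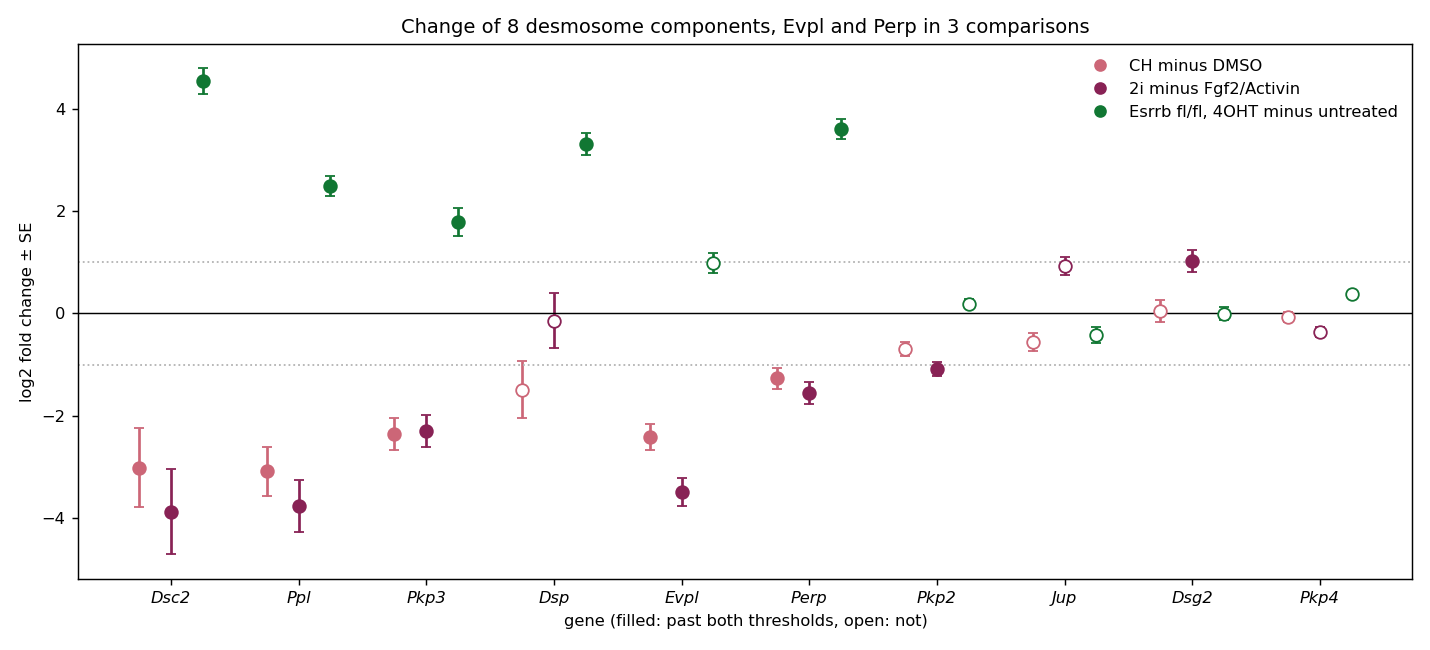
Log2 fold change ± SE (vertical axis, edgeR fit) of the 8 members tested in all 3 comparisons and of Evpl and Perp, with filled marks for genes past both thresholds and dotted lines at the minimum of 1 in either direction. Dsc2, Ppl and Pkp3 lie below -2 in CH and 2i and above 1 after 4OHT, while Pkp2, Jup, Dsg2 and Pkp4 lie between -1.08 and 1.02.

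Of 10 other desmosome genes, 8 had a count in any sample and 5 could be tested in wild-type cells. Evpl (envoplakin, the plakin that pairs with periplakin) had 11.4, 11.3 and 12.4 CPM in DMSO, 12.9, 14.1 and 14.6 in Fgf2/Activin, 3.20, 1.73 and 1.60 in CH and 1.60, 1.06 and 1.03 in 2i. It was lower in each sample with the GSK3 inhibitor, by 2.42 (SE 0.26) in CH relative to DMSO and 3.49 (SE 0.27) in 2i relative to Fgf2/Activin, with edgeR adjusted p of 2.84e-05 and 1.73e-06. Its rise after 4OHT, 0.98 (SE 0.20, adjusted p = 0.00261), stopped short of the minimum fold change. Perp, a membrane protein needed for desmosome assembly in epidermis, fell by 1.26 (SE 0.21) and 1.56 (SE 0.21) in the same wild-type comparisons, with edgeR adjusted p of 0.000549 and 0.000107. After 4OHT Perp rose by 3.59 (SE 0.20, edgeR adjusted p = 4.15e-06), from 2.68, 1.81 and 2.55 to 33.8, 23 and 26.3 CPM, a group above every other sample of the series.

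The remaining desmosome genes were not called in these 3 comparisons. Kazn and Cdsn had log2 differences of 0.32 (SE 0.35) and -0.01 (SE 0.31) between CH and DMSO. Dsg3 had at most 18 counts in a sample and a log2 difference of 2.59 (SE 0.81, edgeR adjusted p = 0.0191) between 2i and Fgf2/Activin, which passed with the replicate block (adjusted p = 0.0043) and with samples 2 and 3 alone. Dsg1a and Dsg4 had no count, and Dsc1, Dsg1b and Dsg1c had at most 2 counts in a sample. The Dsg1 genes share 37.4% to 88.1% of their transcript sequence with one another or a further gene at 95% identity or more, so their counts are uncertain. Over the list, 2 of 5 were called lower in CH than in DMSO (10.2% of all genes) and the median log2 change was -0.01. After 4OHT 1 of 4 tested was called, Perp (16.7% of all genes).

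Keratins are the filaments that desmosomes anchor, and Krt8 and Krt18 pair in simple epithelia. Krt18 had 248, 83.0 and 78.1 CPM in DMSO and 2.96, 1.47 and 2.00 CPM in CH, and it fell by 5.99 (SE 0.62, edgeR adjusted p = 2.28e-05). Krt8 had 87.4, 31.2 and 33.5 CPM in DMSO and 6.06, 2.87 and 3.20 CPM in CH, and it fell by 3.64 (SE 0.48, adjusted p = 0.000132). For both the groups were far apart. DMSO sample 1 was the highest, and without it the changes were -5.23 for Krt18 and -3.00 for Krt8. After 4OHT Krt8 rose by 5.02 (SE 0.37), Krt18 by 4.41 (SE 0.35) and Krt19, another simple keratin, by 5.31 (SE 0.13), with edgeR adjusted p of 1.33e-05, 1.78e-05 and 1.66e-07. Krt19 did not pass between CH and DMSO (-0.32, SE 0.45). Krt23 went the other way, from 0 counts in all DMSO samples to 226, 342 and 330 counts in CH, at least 110-fold higher against a floor of 3 counts per library. It fell by 2.33 (SE 0.25) after 4OHT, with an edgeR adjusted p of 8.41e-05. Of 12 keratins and filament partners, 9 were tested between CH and DMSO, with 4 called lower (10.2% of all genes), 2 called higher (7.51%) and a median of -1.94. After 4OHT 6 of 9 were called higher (12.8% of all genes) and 1 lower (3.87%), with a median of 2.74.

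**Figure D4:**
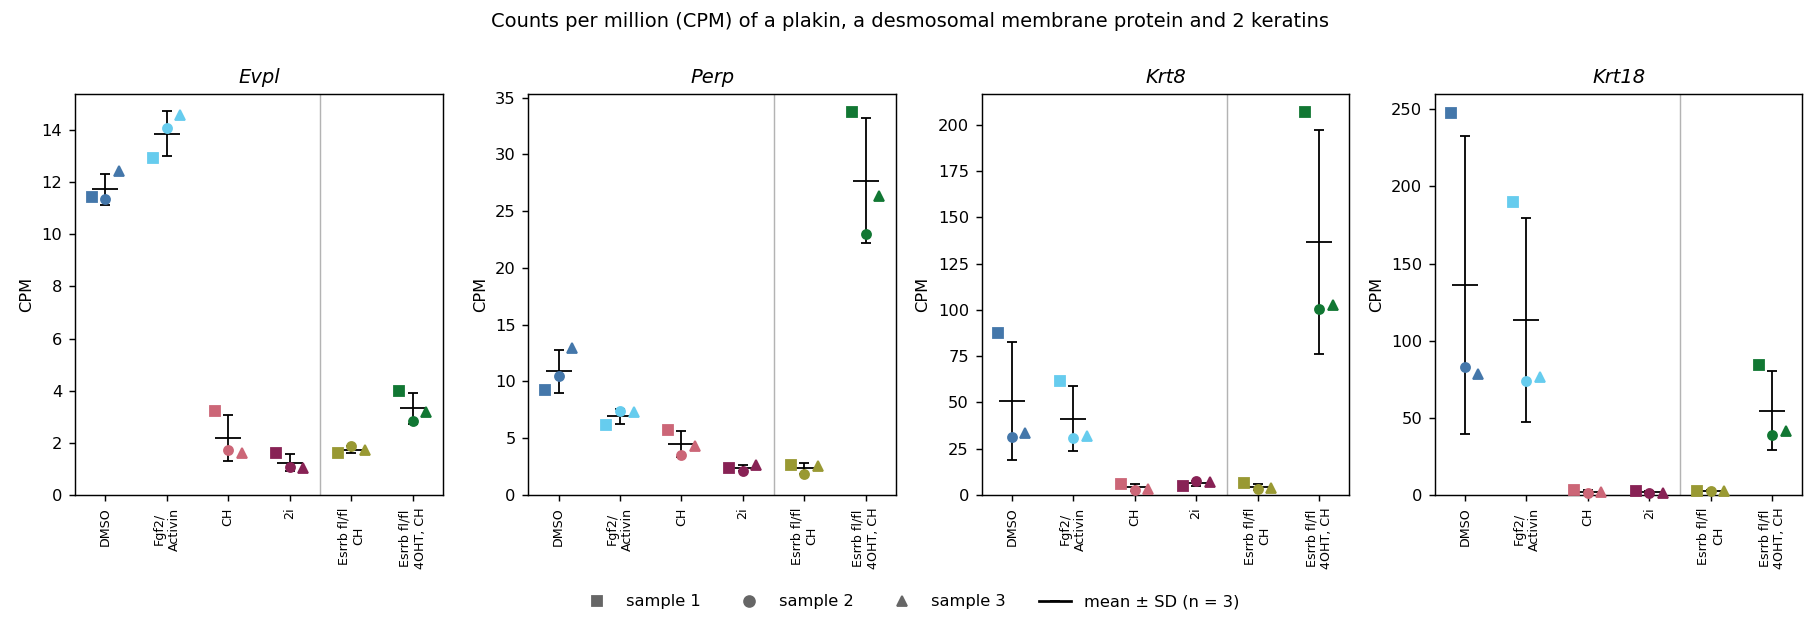
CPM of Evpl, Perp, Krt8 and Krt18 (vertical axes from 0, 1 scale per gene) in the 6 groups, with 1 mark per sample and the mean ± SD of 3 samples in black. All 4 are lower in CH and 2i than in DMSO and Fgf2/Activin in every sample, and all 4 are higher in every 4OHT-treated than in every untreated Esrrb fl/fl sample.

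Adherens junctions join neighbouring cells through classical cadherins and catenins. Of 9 genes tested, 1 was called higher (Ctnnd2, a relative of p120-catenin, 1.68, SE 0.28, edgeR adjusted p = 0.000593) and 1 lower (Ctnna2, the neural α-catenin) in CH than in DMSO, against 17.7% of all genes in either direction, and the median was -0.43. Ctnna2 had 4, 5 and 11 counts in DMSO and 0 in CH, at least 2.15-fold lower against the floor. That call (edgeR adjusted p = 0.00872) was lost without any 1 of DMSO samples 2 and 3 and the CH samples, at adjusted p of 0.0154 to 0.0243. After 4OHT Ctnnd2 fell by 1.13 (SE 0.16, edgeR adjusted p = 0.000356) and was the 1 gene called of 8 (16.7% of all genes), with a median of 0.37 over the list. Without untreated sample 1 the change of Ctnnd2 was -0.98, under the minimum.

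Of 16 factors known to regulate desmosome genes or desmosome turnover, 4 were called lower and 2 higher in CH than in DMSO, against 10.2% and 7.51% of all genes, with a median of 0.35. The largest changes were those of Zeb1, a repressor of epithelial genes, which rose by 4.58 (SE 0.53, edgeR adjusted p = 5.05e-05), and of Ovol1, a factor of epithelial differentiation, which fell by 3.22 (SE 0.84, adjusted p = 0.00948). Egfr, a receptor tyrosine kinase, fell by 1.27 (SE 0.21, adjusted p = 0.000546). The Ovol1 call was kept in 7 of 12 alternatives. It was lost without DMSO sample 2 (-2.76) or 3 (-3.11) and without CH sample 1 (-2.62) or 3 (-3.12), and it was -4.49 without CH sample 2. After 4OHT 3 of 16 were called higher and 2 lower, against 12.8% and 3.87% of all genes, with a median of 0.24. Egfr rose by 2.21 (SE 0.16, edgeR adjusted p = 1.24e-05) and Snai2, a repressor of cadherins, by 2.60 (SE 0.29, adjusted p = 0.000106), while Ovol1 fell by 1.95 (SE 0.42, adjusted p = 0.00382). This Ovol1 call was lost without treated sample 2 (-1.85) and without untreated sample 2 (-1.79) or 3 (-2.0), and the change was -2.56 without treated sample 3. Zeb1 had a log2 difference of -0.44 (SE 0.15, adjusted p = 0.0341).

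Hemidesmosomes attach keratin to the basement membrane rather than to a neighbour cell. None of the 9 genes on that list was called between CH and DMSO by edgeR, with or without the replicate block (17.7% and 22% of all genes), and their median was -0.36. At an unadjusted p under 0.05 there were 4, and DESeq2 called 0. The share of all genes at that unadjusted cut is not given here, so the 4 cannot be set against it. After 4OHT 3 of 9 were called higher (12.8% of all genes), among them the laminin gene Lamb3 with a rise of 2.84 (SE 0.24) and integrin β4 (Itgb4) with a rise of 2.78 (SE 0.34), at edgeR adjusted p of 2.42e-05 and 0.000171. Integrin α6 (Itga6) fell 2.01-fold (adjusted p = 1.08e-05), at the edge of the minimum, and the call was lost without treated sample 1 (-0.93).

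Markers of other cell types moved with some of these groups, and not all members of a list moved one way. The summed level of 7 primitive endoderm markers was 9.07 to 10.7 CPM in DMSO, 6.10 to 6.58 in Fgf2/Activin, 3.32 to 4.26 in CH and 1.68 to 1.97 in 2i, and 2.18 to 3.65 CPM in untreated and 5.56 to 7.84 CPM in 4OHT-treated Esrrb fl/fl cells. Between CH and DMSO 2 of the 7 were called lower (Sox7 and Dab2), against 10.2% of all genes, and 1 higher (Foxa2), against 7.51%. Sox7 and Dab2 made up most of the DMSO sum. After 4OHT, of 4 tested, 2 were called higher (Gata4 and Pdgfra), against 12.8% of all genes, and 1 lower (Sox7), against 3.87%. Sox7 had 27, 16 and 18 counts untreated and 1, 2 and 4 treated. Gata6 was at or under 3 counts in all Fgf2/Activin and 2i samples, and Sox17 and Foxa2 were so in all untreated Esrrb fl/fl samples.

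The 4 post-implantation epiblast markers summed to 2348 to 3682 CPM in DMSO and 474 to 867 in CH, and to 976 to 1294 in untreated and 524 to 786 in 4OHT-treated cells, mostly Dnmt3b. All 4 were called lower in CH than in DMSO, while after 4OHT Fgf5 was called higher and Otx2 lower. Of all genes, 10.2% were called lower and 7.51% higher in CH than in DMSO, and 12.8% higher and 3.87% lower after 4OHT. These shares apply to the calls of every list in this paragraph. The 4 mesendoderm markers summed to 0.535 to 0.966 CPM in DMSO and 437 to 670 in CH, and to 37.4 to 47.5 untreated and 318 to 454 after 4OHT. The 2 that could be tested, T and Mixl1, were called higher in both comparisons, and Gsc and Mesp1 had at most 8 counts in any sample. The 6 trophectoderm markers summed to 11.2 to 15.2 CPM in DMSO and 76.9 to 118 in CH, and to 36.8 to 48.5 untreated and 32.6 to 47.4 after 4OHT. Between CH and DMSO Cdx2 and Tfap2a were called higher and Eomes lower, and after 4OHT Cdx2 was called higher and Tfap2a lower. Of the 5 surface and stratified ectoderm markers, the sum lay between 1.97 and 5.96 CPM in all 18 samples and was mostly Krt10. Within it Trp63 was called higher in CH than in DMSO (82, 45 and 43 counts against 1, 1 and 0) and after 4OHT (26, 15 and 16 against 6, 3 and 3), and Krt1 lower in CH (0, 1 and 0 counts against 22, 15 and 18). The neuroectoderm markers, Sox1 and Pax6, summed to 0.642 to 2.13 CPM in DMSO and 0.443 to 2.19 in CH, and to 1.88 to 2.12 untreated and 0.564 to 0.672 after 4OHT, where Pax6 was called lower. The part of any of these cell types in the desmosome results was not tested.

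Of 11200 genes that averaged 100 counts or more, those whose log2(CPM + 1) was most like that of Dsp over the 12 wild-type samples were Smarcd2, Mpnd, Mvp, Bphl and Cuedc1, with Pearson's r between 0.97 and 0.98. These 12 points share sample numbers and culture conditions. Each of the 5 genes was higher in sample 1 than in the mean of samples 2 and 3 in all 4 conditions, by 1.24 to 4.87 times. Over the 8 samples numbered 2 and 3 their r with Dsp was between 0.93 and 0.98. These 8 samples are among the 12 on which the genes were chosen, so this r is no independent check of the likeness. Among the members, r with Dsp over the 12 samples was 0.76 for Dsc2, 0.70 for Pkp3, 0.68 for Ppl, 0.43 for Pkp2, 0.34 for Jup, 0.12 for Dsg2 and -0.05 for Pkp4. Over the 8 samples numbered 2 and 3 it was 0.84 for Dsc2, 0.87 for Pkp3, 0.80 for Ppl, 0.73 for Pkp2, 0.0039 for Jup, -0.52 for Dsg2 and 0.14 for Pkp4. Sample 1 was the highest of its group for Dsc2 in 6 of 6 groups, for Dsp, Dsg2, Pkp3 and Ppl in 5 of 6, and for Pkp4 in 2 of 6.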

How the data were processed

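The authors aligned the reads with TopHat2 to mm10 and counted them with HTSeq on Ensembl genes of GRCm38 without regard to strand, and deposited whole-number counts that were not normalised. All columns of the table belonged to 1 of the 18 samples. The members and the gene lists were chosen with earlier results of these data known.

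Counts were scaled by TMM and filtered with filterByExpr in edgeR 4.0.16 (limma 3.58.1, R 4.3.3). They were tested with glmQLFit and glmQLFTest, with the 12 wild-type samples in 1 fit and the 6 Esrrb fl/fl samples in another, and with Benjamini-Hochberg adjustment over all genes tested. A call needed an adjusted p below 0.01 with a log2 fold change beyond 1 in either direction, after the methods of the study. The SE given with a log2 change is its absolute value divided by the square root of the F statistic of the test. CPM used TMM-scaled totals of all 18 samples, and lengths were merged exons of the GENCODE annotation of GRCm38. The depth per sample limits low genes, and intervals and floors cover counting error only. Simulated data with known changes were used to test the scripts. The study describes its experiments in general as independently repeated, but the labels do not say that the samples of a group were separate cultures, and p-values measure only the spread between these samples, which may in part be technical.

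Genes named are the 10 members, 10 other desmosome genes, up to 4 genes per list with the largest called changes in CH or after 4OHT, the 5 genes most like Dsp, and Esrrb with markers. A gene that this rule names is not reported here. Deviations from the group means were correlated between same-numbered samples, at 0.39 or more for every pair, whereas other pairs averaged -0.18 or lower. Because the deviations are from means of 3 samples, positive same-number values push those of other pairs below 0. Sample 1 also stood apart in every group, so these values cannot show that samples 2 and 3 are paired by number. A replicate block was fitted as an alternative. Other alternatives were DESeq2 1.42.0 (size factors, test), no filter, no minimum fold change, only the 6 samples compared and each sample left out. Total-count scaling was applied to the CPM levels only and not to the tests, and it moved 5 of 60 group means beyond their SD. Samples 2 and 3 alone were chosen after seeing the data. Transcripts were compared with blastn 2.17.0, and no member shared 75 bases at 95% identity with a gene other than those overlapping it. Figures were drawn with matplotlib 3.10.9.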

Additional observations from a re-analysis of the deposited data

How the results depend on the processing

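No member called in a comparison turned its direction under any alternative of that comparison. Without a minimum fold change 4750 genes were called between CH and DMSO, 6193 between 2i and Fgf2/Activin and 6621 after 4OHT, against 2907, 3857 and 2485. Between 2i and CH 326 genes were called, against 597 with DESeq2, 672 with the replicate block, 100 with only the 6 samples compared, 768 with samples 2 and 3 alone and 144 to 275 with 1 sample left out. Between Fgf2/Activin and DMSO 205 were called, against 374, 424, 87, 499 and 112 to 171. The members called between 2i and Fgf2/Activin (5) ranged from 3 to 6 with 1 sample left out. Members with no call changed sign when 1 sample was left out, with log2 ranges of -0.13 to 0.39 for Dsg2 and -0.12 to 0.012 for Pkp4 between CH and DMSO and -0.63 to 0.13 for Dsp between 2i and Fgf2/Activin. Between 2i and CH the ranges were -0.075 to 1.14 for Dsp, -2.54 to 0.040 for Dsc2, -0.12 to 0.14 for Pkp2 and -0.46 to 0.021 for Pkp3. Between Fgf2/Activin and DMSO they were -0.85 to 0.041 for Dsc2 and -0.69 to 0.19 for Ppl, and after 4OHT -0.13 to 0.12 for Dsg2. With samples 2 and 3 alone Pkp4 was at 0.041 between CH and DMSO and Pkp2 at -0.033 between 2i and CH. The cause of these shifts was not tested. The replicate block added Dsp between CH and DMSO and Dsc3 between 2i and Fgf2/Activin and ended no member's call. Counts limit Dsc3, Pkp1 and, in untreated Esrrb fl/fl cells, Dsc2.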
